A study of Mus musculus with 24 samples.

Results

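Synaptic vesicle and SNARE genes were examined in the RNA-seq data of the medial prefrontal cortex (mPFC) as the protein-coding genes named Syt, Stx, Stxbp, Vamp or Snap followed by a number, Syn1 to Syn3, Syp, Cplx, Sv2, Rims or Rab3. Of the 15456 genes in the table, 13913 were protein coding and 80 of these met the naming rule. The naming rule uses no measured value. All mice were BALB/C, 11 weeks old and, per the study's methods, male and of the substrain BALB/c OlaHsd. The labels set the groups apart by treatment alone. The 6 control mice are labelled as untreated and received PBS according to the methods, 6 mice received daily i.p. injections of duloxetine, a serotonin and norepinephrine reuptake inhibitor, 6 received the gut bacterium *R. flavefaciens* by gavage, daily at first and later 2 times a week, and 6 received both treatments. The mPFC was punched from brain slices, so that each sample is a mixture of cell types of 1 mouse. The sum of reads recovered per mouse was between 12811413 and 15607343. A mean of at least 10 normalized counts was reached by 79 of the 80 members, and Rab37, with a mean of 9.94, was not tested.

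Transmitter release rests on the SNARE complex, in which synaptobrevin (Vamp) on the vesicle zips together with syntaxin (Stx) and SNAP-25 on the plasma membrane and draws the membranes into contact. Munc18 proteins (Stxbp) assemble the complex, complexins hold it in a primed state, synaptotagmins (Syt) sense the calcium that triggers fusion, and RIM proteins (Rims) and Rab3 GTPases place the vesicle at the active zone. In the cortex the same set of proteins serves glutamatergic and GABAergic terminals. The naming rule also took in proteins with other tasks, namely SNAREs of endosomes, lysosomes and the Golgi, and Snap91, a clathrin assembly protein of vesicle recycling. It further took in Rab30 to Rab39, whose names merely begin like that of Rab3. All of these are described apart from the release machinery.

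The release machinery was among the most abundant mRNA of the tissue. Per kilobase of the longest annotated transcript, Snap25 had a mean of 7396 normalized counts over the 24 mice and Vamp2 7395, and these 2 release SNAREs could not be ranked, since Snap25 was the higher one in 11 mice only. Below them were Syt1, the fast calcium sensor, with 5121, Syp (synaptophysin), a vesicle membrane protein, with 4393, Rab3a with 4388 and Cplx1 with 3560 normalized counts per kb. Syt1 stayed below Vamp2 in all 24 mice, whereas Syp and Rab3a changed places in 12 of 24. The 10 most abundant members held 59.9 percent of the summed level per kb of all members. The median member stood at the 71.6th percentile of all protein-coding genes, with 8 members above the 99th and 28 below the 50th.

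**Figure D1:**
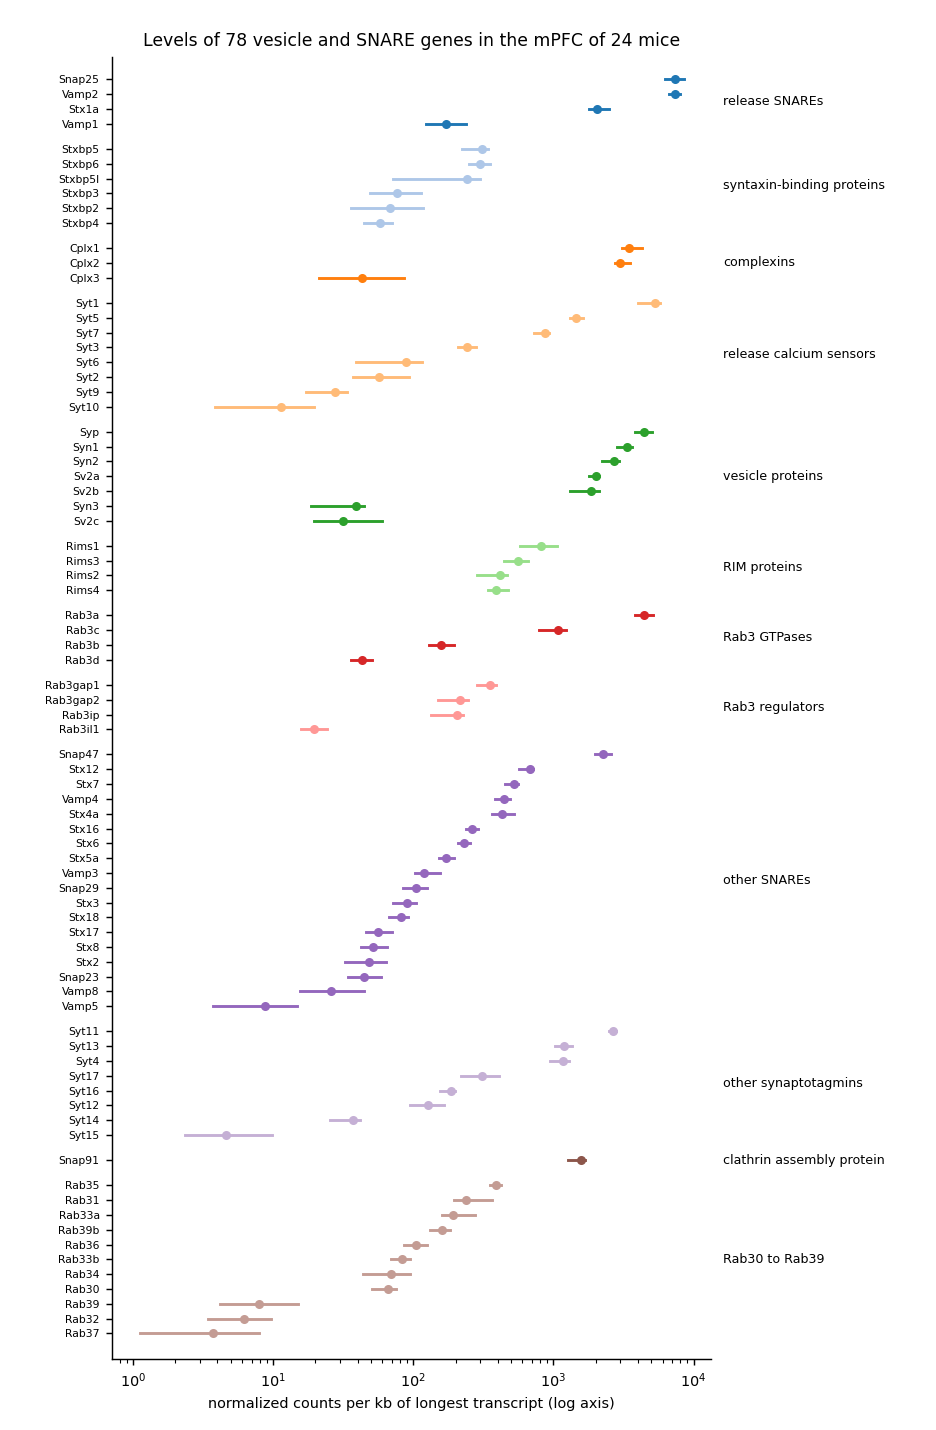
Level of 78 of the 80 members in normalized counts per kb of the longest transcript (log axis), grouped by class, with the median (point) and the range (line) over all 24 mice. Snap25 and Vamp2 lead with means of 7396 and 7395 and Rab37 is lowest with 3.81.

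Within each class 1 or a few isoforms made up most of the mRNA. Among the release SNAREs, Stx1a stood at 2069 normalized counts per kb, while Vamp1 reached only 172. The calcium sensors of release ran from Syt1 down to Syt10 at 11.7, with Syt5 at 1434 and Syt7, the slow sensor of asynchronous release, at 870. Of the complexins, Cplx2 had 3056 and Cplx3, the form known from the retina and cortical subplate, 47.7 normalized counts per kb. The vesicle proteins ended with Sv2c at 32.8, against 3275 for Syn1 (synapsin I), and the syntaxin-binding proteins with Stxbp4 at 57.5. RIM proteins were close together, from Rims1 at 829 to Rims4 at 393, and Rab3 GTPases were spread from Rab3a down to Rab3d at 42.6. Their regulators ranged from Rab3gap1, a subunit of the GTPase-activating complex of Rab3, at 353 to Rab3il1 at 19.7. Outside the release machinery, Snap47 led the other SNAREs with 2243 and Vamp5 was lowest with 9.09, Syt11 led the other synaptotagmins with 2646 and Syt15 was lowest with 5.15, and Rab35 led Rab30 to Rab39 with 387. Snap91 stood at 1537 normalized counts per kb.

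Ratios of 8 pairs of sister genes per kb were compared. The ratio of Cplx2 to Cplx1 was 0.857 ± 0.031 in controls, 0.868 ± 0.062 with duloxetine, 0.840 ± 0.079 with *R. flavefaciens* and 0.883 ± 0.105 with both (SD, n = 6 each). That of Syn1 to Syn2 was 1.27 ± 0.094, 1.26 ± 0.036, 1.22 ± 0.051 and 1.21 ± 0.065 in the same order (SD, n = 6 each). Rab3a to Rab3c stood at 3.995 ± 0.32, 4.02 ± 0.33, 4.65 ± 0.67 and 4.03 ± 0.30, and Sv2a to Sv2b at 1.04 ± 0.080, 1.08 ± 0.068, 1.183 ± 0.15 and 1.17 ± 0.15. Syt1 to Syt2 was at 107.6 ± 31.2, 99.3 ± 9.93, 80.4 ± 15.8 and 85.1 ± 22.7 (SD, n = 6 each). Without mice 8_4 and 9_3 of that group, which stood apart as given beside the spread between mice, the *R. flavefaciens* means of these 3 ratios were 4.25 ± 0.28, 1.09 ± 0.029 and 83.8 ± 16.3 (SD, n = 4). The ranges of all 4 groups overlapped for all 8 pairs, and no test was run on the ratios.

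The spread between mice of a group was small for most members. The within-group coefficient of variation had a median of 8.66 percent over the 79 tested members, it was below 10 percent for 46 of them, and it ran from 3.23 percent for Syt11 to 43.3 percent for Cplx3. Some mice stood apart. In the *R. flavefaciens* group, mouse 9_3 had values that fell with transcript length relative to the other mice (Spearman's rho of its deviations with length across genes -0.556, against -0.318 to 0.244 in the other 23 mice). In mouse 8_4 of the same group the summed level of 8 striatal markers was 7980 normalized counts, against 2388 to 3546 in the other 5 mice of the group. Its summed level of 3 choroid plexus markers was 791, against 25.5 to 108 in those mice. Mouse 11_4, with both treatments, had a striatal sum of 4904, against 2574 to 3053 in the other 5 of its group. Mice 9_3 and 8_4 were the lowest of their group for 22 and 25 of the 79 members, and mice 6_2, 6_3 and 12_2 of other groups also for 22 each. The comparisons with the *R. flavefaciens* group are therefore also given without these 2 mice, an alternative added after the data were seen.

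Duloxetine alone was compared to control mice to ask what the antidepressant does to these genes, and none of the 79 tested members passed the test. The limma test called 0 of 79 members at an adjusted p under 0.05, and 0.0 percent of all 14974 genes tested. Without adjustment, 1 member was higher and 1 lower at a p under 0.05, that is 1.27 percent each, against 2.2 percent of all genes higher and 1.63 percent lower. DESeq2 called 0 members, and its share of all genes is not given here. The median log2 fold change was -0.02 over the members and -0.0018 over all genes, and 54 of 79 members were below 0, against 51.0 percent of all genes.

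The higher member was Syt15, a synaptotagmin without calcium-dependent activity, at a very low level. Its normalized counts ran from 8.48 over a median of 15.2 to 23.9 in controls and from 16.3 over 25.1 to 35.5 with duloxetine (log2 fold change 0.68, SE 0.26, limma adjusted p = 0.9996). The groups overlapped. The lower member was Rab3gap1 with 1545, 1601 and 1648 as lowest, median and highest control value and 1449, 1491 and 1579 with duloxetine, a log2 difference of -0.10 (SE 0.048, limma unadjusted p = 0.0441). The ranges of Rab3gap1 overlapped as well. The next smallest p-values belonged to Stx3 and Stx2 on the higher side (log2 0.11 and 0.19) and to Syt10 and Syt9 on the lower side (log2 -0.46 and -0.21). None of these reached an unadjusted p of 0.05. The core of the machinery did not pass the test either, with Snap25 at a median of 35200 in controls and 36030 with duloxetine and Syt1 at 26040 and 25980.

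*R. flavefaciens* was compared to control to ask what the bacterium alone does. The limma test called 0 of 79 members and 0.0267 percent of all genes. Counted by an unadjusted p under 0.05, 2 members were higher and 13 lower. The lower ones were 16.5 percent of the members against 10.8 percent of all genes, and the higher ones 2.53 percent against 8.86 percent. DESeq2 on recovered reads called 1 member, Rims2, and 3.26 percent of all genes. The median log2 fold change was -0.03 over the members and 0.0031 over all genes, and 47 of 79 members were below 0, against 49.2 percent of all genes. Without mice 8_4 and 9_3 together, 7 in place of 15 members had an unadjusted p under 0.05, that is 8.86 in place of 19.0 percent, while the share of all genes was 9.15 in place of 19.6 percent. Limma again called 0 members there, and the median was -0.02.

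**Figure D2:**
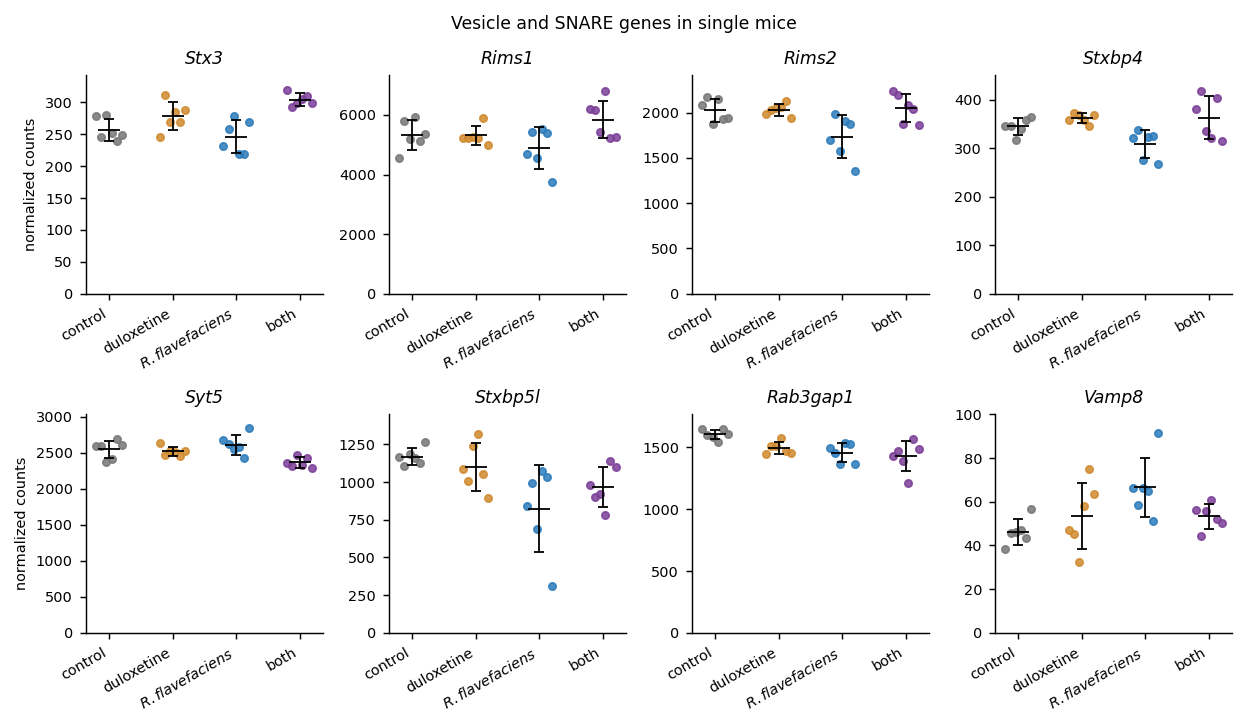
Normalized counts of 8 members in single mice (points) with mean and SD (bars, n = 6 per group), on axes that start at 0. All 6 mice with both treatments lie above all 6 *R. flavefaciens* mice for Stx3, from 292 up against 280 at most, and mouse 9_3 is the lowest *R. flavefaciens* point of Stxbp5l at 312.

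The member with the smallest p-value was Rims2, an active zone scaffold that binds Rab3 and calcium channels. Its normalized counts were 1871 at the lowest, 2014 at the median and 2175 at the highest in controls and 1359, 1788 and 1988 with *R. flavefaciens* (log2 fold change -0.23, SE 0.069, limma adjusted p = 0.0875, DESeq2 adjusted p = 0.0444). The groups overlapped, with mouse 9_3 the lowest. Without mouse 9_3 the log2 fold change was -0.17, and without 8_4 as well -0.12. Leaving out mouse 8_3 or 9_2 of the treated group brought Rims2 past the limma threshold (lowest adjusted p = 0.0368).

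Stxbp5l (tomosyn-2), which binds syntaxin in place of Vamp2 and so holds back release, had the largest difference of the members named for this comparison. It ranged from 1106 over 1164 to 1267 normalized counts in controls and from 312 over 916 to 1071 with *R. flavefaciens* (log2 fold change -0.61, SE 0.19, limma adjusted p = 0.0924). All 6 treated mice were below all 6 controls, which was so for 2 of 79 members and for 0.835 percent of all genes. The opposite order, all treated mice above all controls, was found for 0 members and 0.788 percent of all genes. The value rested in part on mouse 9_3 at 312, without which the log2 fold change was -0.35, or -0.25 without 8_4 as well, while leaving out mouse 8_3 or 9_2 brought it past the limma threshold (lowest adjusted p = 0.0410).

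Rab3gap1 was the other member whose groups did not overlap, with 1365, 1473 and 1535 normalized counts with *R. flavefaciens* against the 1545 to 1648 of controls (log2 fold change -0.14, SE 0.048, limma adjusted p = 0.121). On the higher side stood Vamp8 (endobrevin), a SNARE of late endosomes and of secretory granules, with 38.4, 46.0 and 56.8 in controls and 51.3, 65.8 and 91.6 with the bacterium. The Vamp8 groups overlapped (log2 fold change 0.50, SE 0.16, limma adjusted p = 0.0955), and only without mouse 9_2 did the difference pass, at an adjusted p of 0.0444. Stx8, an endosomal syntaxin, had a log2 fold change of 0.18 and Stx18, of the endoplasmic reticulum, 0.14 (limma adjusted p = 0.157 and 0.296).

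By role, the 5 release SNAREs were little apart from controls. Their median log2 fold change was 0.02, which turned to -0.0026 with the length trend removed. Snap25 had a median of 35200 in controls and 37070 with the bacterium, Vamp2 16220 and 16370 and Stx1a 4569 and 4573. None of the 5 had an unadjusted p under 0.05. Of the 7 syntaxin-binding proteins, all 7 had a log2 fold change below 0 and 3 of them an unadjusted p under 0.05 (Stxbp5l, Stxbp5 and Stxbp4), with a class median of -0.12. The highest of the 7 was at -6.9e-05, which amounts to no difference. Of all genes, 49.2 percent were below 0 and 10.8 percent lower at an unadjusted p under 0.05. Of the 8 calcium sensors, Syt1, Syt6 and Syt7 were lower at an unadjusted p under 0.05. Syt1 ran from 25380 over 26040 to 26760 in controls and from 19270 over 23910 to 25720 with *R. flavefaciens* (log2 fold change -0.19, SE 0.073, limma adjusted p = 0.151). The ranges of Syt1 overlapped, and mice 9_3 and 8_4 were the lowest with 19270 and 19350, against 23730 to 25720 in the other 4 treated mice. Without these 2 mice the log2 fold change of Syt1 was -0.07, and those of Syt7, Stxbp5 and Stxbp4 were -0.05, -0.10 and -0.08 in place of -0.12, -0.21 and -0.17. Syt6 was at -0.54 with them and -0.56 without.

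Of the 7 vesicle proteins, Sv2b alone had an unadjusted p under 0.05 (log2 fold change -0.22, and -0.08 without mice 8_4 and 9_3), while Syp was at 0.03, Syn2 at -0.07, Sv2a at -0.04 and Syn1 at -0.12. Rab3a (log2 fold change 0.04) and the complexins Cplx1 (0.11) and Cplx2 (0.08) lay above 0, none with an unadjusted p under 0.05. The remaining complexin, Cplx3, was at -0.13, and at -0.31 without mice 8_4 and 9_3. Of the 4 Rab3 GTPases, 3 lay above 0 and 1, Rab3c, below it (-0.17, and -0.05 without these mice). The signs of the small differences of Rab3a, Stx1a and Vamp2 turned when a trend on transcript length was removed, and that of Snap25 under quantile normalization. Rims1 was at -0.13, at -0.06 without mouse 9_3, at -0.02 without 8_4 as well, and at -0.05 with the length trend removed. Without both mice Syn1 was at -0.03, Syn2 at -0.0084, Sv2a at -0.02, Syp at 0.04, Rab3a at 0.04, Cplx1 at 0.12 and Snap25 at 0.10. The other SNAREs, 18 genes, had a median of 0.03 with 11 above 0, which turned to -0.0068 without the length trend. The 10 tested genes of Rab30 to Rab39 had a median of -0.02.

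**Figure D3:**
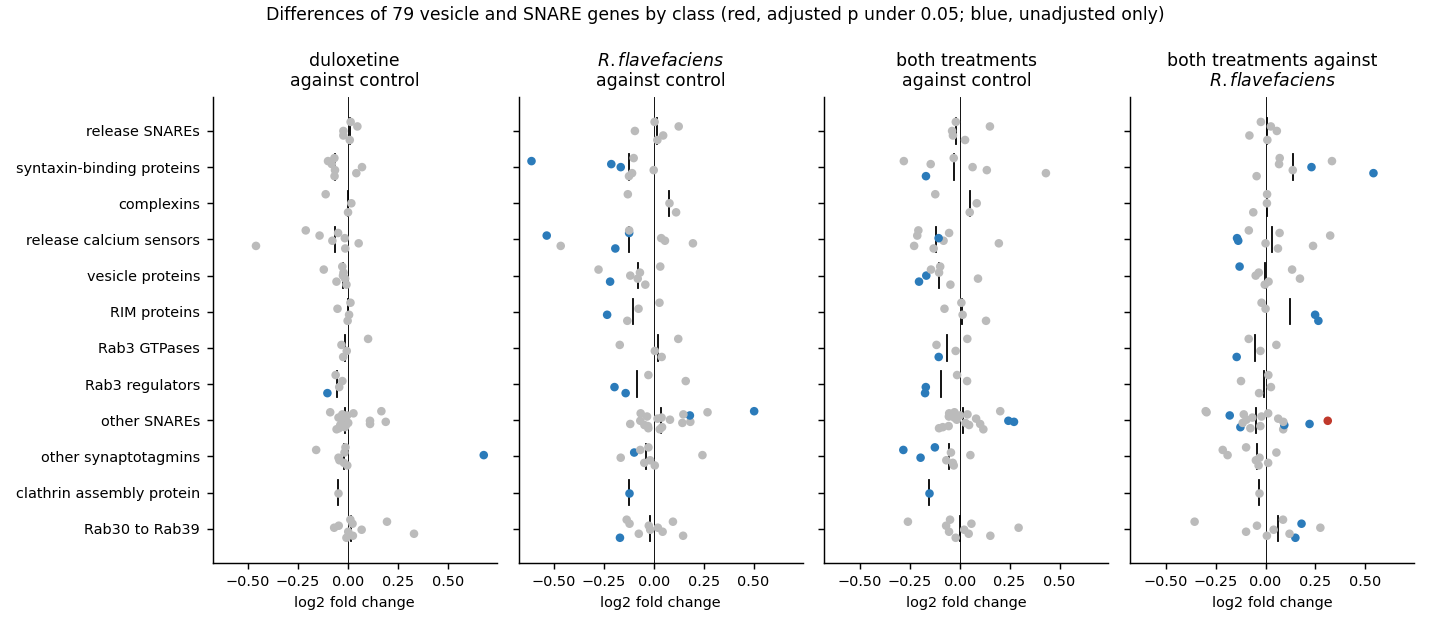
Log2 fold change of the 79 tested members by class in 4 comparisons, 1 point per gene, with the class median as a black line; red marks a limma adjusted p under 0.05 and blue an unadjusted p under 0.05 only. The single red point is Stx3 at 0.31 for both treatments against *R. flavefaciens*.

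Differences with *R. flavefaciens* went along with transcript length. Across the 79 members, Spearman's rho between the log2 fold change and the length of the longest transcript was -0.447, and across 14958 genes with a length it was -0.472. These are values across genes, which are not independent replicates, and without mouse 9_3 they were -0.266 and -0.365. The 26 members with the shortest transcripts, from 1158 to 2957 bases, had a median log2 fold change of 0.03, and the 27 with the longest, from 4536 to 9456 bases, of -0.12. The members of the RIM, tomosyn and Rab3 regulator families named above are among the long or middle transcripts, with 4800 bases for Rims2, 4394 for Stxbp5l and 4243 for Rab3gap1, and Vamp8 has 2076. With the length trend removed from each mouse, 2 members were higher and 5 lower at an unadjusted p under 0.05, that is 2.53 and 6.33 percent against 5.7 and 5.35 percent of all genes, and Rims2 was at -0.19 on the log2 scale (limma adjusted p = 0.245). In that fit Stxbp5l was at -0.59, Rab3gap1 at -0.12 and Vamp8 at 0.45, against -0.61, -0.14 and 0.50 in the main fit. Without mouse 9_3, 9 members (11.4 percent) had an unadjusted p under 0.05, against 11.5 percent of all genes, and without mouse 8_4 12 members (15.2 percent), against 17.2 percent. The part of length in these differences was not tested further.

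**Figure D4:**
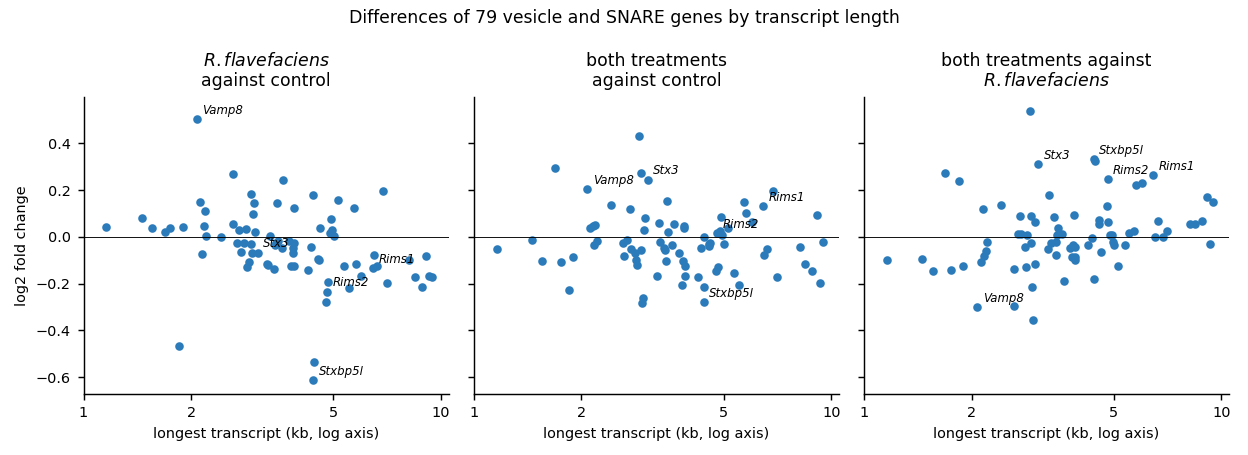
Log2 fold change of the 79 tested members against the length of the longest transcript (kb, log axis) in 3 comparisons, 1 point per gene. For *R. flavefaciens* against control the points slope down (rho -0.447), for both treatments against control they hardly do (rho -0.085), and for both treatments against *R. flavefaciens* they slope up (rho 0.334).

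Both treatments were compared to control to see the combined effect. The limma test called 0 of 79 members and 0.1 percent of all genes, and DESeq2 called Stx3 as higher and Rab3gap1 as lower, with 1.45 percent of all genes called. By the unadjusted p under 0.05, 2 members (2.53 percent) were higher and 11 (13.9 percent) lower, against 8.08 percent and 8.73 percent of all genes. The median log2 fold change was -0.03 over the members against 0.0007 over all genes, with 49 of 79 members and 49.8 percent of all genes below 0. With the 75th percentile as the scale both medians were higher, at -0.0016 and 0.0323, and under quantile normalization they were -0.0090 and -0.0060. With the length trend removed they were -0.056 and -0.024. In a fit without mice 8_4 and 9_3, which are in neither group, limma called Stx3 and Rab3gap1 (adjusted p = 0.0386 and 0.0411) and 2.26 percent of all genes. In that fit 19 in place of 13 members had an unadjusted p under 0.05. Without single mice the number of such members ran from 7 (without 11_3 or 12_2) to 18 (without 12_4) and was 9 without 11_4, where limma called 0. The shares of all genes at that threshold in these fits are not given here, so a change common to all genes is not set apart. This comparison shares its control mice with the 2 before it.

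Stx3, a syntaxin known from apical membranes, ribbon synapses and postsynaptic receptor delivery, ran from 239 over 251 to 280 normalized counts in controls and from 292 over 303 to 319 with both treatments. All 6 treated mice were above all controls (log2 fold change 0.24, SE 0.067, limma adjusted p = 0.109, DESeq2 adjusted p = 0.0452). Such an order was found for 1 of 79 members and 0.882 percent of all genes, and the reverse order for 0 members and 1.16 percent of all genes. In a limma fit of these 2 groups alone Stx3 passed the threshold (adjusted p = 0.0488).

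Rab3gap1 ran from 1214 over 1450 to 1569 with both treatments against 1545 to 1648 in controls (log2 fold change -0.17, SE 0.048, limma adjusted p = 0.112, DESeq2 adjusted p = 0.0447). The groups overlapped by a single treated mouse, 12_3. Syn1, which tethers vesicles in the reserve pool, had 10750, 11290 and 11640 normalized counts in controls and 9264, 9952 and 10970 with both treatments (log2 fold change -0.17, SE 0.058, limma adjusted p = 0.167). Here too mouse 12_3 was the single treated mouse above the lowest control. On the higher side followed Stx2 (log2 fold change 0.27) and Rab34 (0.30), with limma adjusted p-values of 0.257 and 0.302.

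By role, 6 of the 7 vesicle proteins and 7 of the 8 calcium sensors had a log2 fold change below 0, against 49.8 percent of all genes. Their class medians were -0.10 and -0.12, and both medians stayed below 0 under quantile normalization, rescaling and removal of the length trend. The signs were alike with duloxetine alone against the same controls. There all 7 vesicle proteins and 7 of the 8 calcium sensors were below 0, against 51.0 percent of all genes. The class medians with duloxetine alone were -0.02 and -0.06. With both treatments against control, single genes were as follows. Rab3a was at -0.10 (limma unadjusted p = 0.0481), Syp at -0.10, Syn2 at -0.10, Syt1 at -0.13 and Sv2a at -0.05. For Syt1, mice 12_2 and 11_4 were the lowest with 20850 and 20870 normalized counts, against 24490 to 26500 in the other 4 mice with both treatments, and leaving out either brought the difference to -0.09. Without 12_2 Syn2 was at -0.06 and Rims1 at 0.09. Snap25 was at 0.08 without 11_4. The 5 release SNAREs had a median of -0.02, which turned to 0.02 under quantile normalization and was 0.01 with rescaling, where the median of all genes was 0.0323, with Snap25 at 0.03, Vamp2 at -0.02 and Stx1a at -0.03. Cplx1 (0.05), Cplx2 (0.09) and Rims1 (0.13) lay above 0, while the remaining complexin, Cplx3, was at -0.12. None of these genes passed after adjustment.

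Adding *R. flavefaciens* to duloxetine, that is both treatments against duloxetine, gave 0 called members and 0.0 percent of all genes with limma. DESeq2 called 0 members as well, and its share of all genes is not given here. Before adjustment, 1 member was higher and 3 were lower at a p under 0.05 (1.27 and 3.80 percent), against 3.02 percent and 2.88 percent of all genes. The higher member was Rab34, a GTPase of lysosome positioning and primary cilia (log2 fold change 0.36), and the lower ones were Syn1 (-0.14), Syt15 (-0.63) and Syt5 (-0.09). Stx3 was at 0.13 and Stx16 at 0.09. All 6 had a limma adjusted p of at least 0.816. The 4 members with an unadjusted p under 0.05 became 0 without duloxetine mouse 5_1, 10 without mouse 12_3 of the group with both treatments, and 12 without mice 8_4 and 9_3, which are in neither group. The shares of all genes in these fits are not given here, so a change common to all genes is not set apart.

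Adding duloxetine to *R. flavefaciens* was the comparison of 2 groups in which limma called a member. Stx3 rose to 1.24 times its level, from 220, 245 and 280 normalized counts as lowest, median and highest value with *R. flavefaciens* to 292, 303 and 319 with both treatments (log2 fold change 0.31, SE 0.067, limma adjusted p = 0.0171). All 6 mice with both treatments were above all 6 with the bacterium alone. Limma called 1 of 79 members and 2.23 percent of all genes, and DESeq2 5 members and 4.17 percent of all genes. Groups without overlap in the higher direction were found for 1 member and 0.614 percent of all genes, and in the lower direction for 0 members and 0.828 percent. The Stx3 call held whichever of the 24 mice was left out (adjusted p from 0.0084 to 0.0478), also without mouse 8_4 or 9_3, and with the length trend removed (0.0160). Without both mice it was at 0.39 (adjusted p = 0.00568), and Stxbp2 (Munc18-2), a syntaxin-binding protein of secretory cells, passed as well (log2 fold change 0.88, adjusted p = 0.0172, against 0.54 and an unadjusted p of 0.0175 with all mice). In that fit 3.08 percent of all genes were called. The Stx3 call was lost in a limma fit of these 2 groups alone (adjusted p = 0.103).

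At an unadjusted p under 0.05, 9 members (11.4 percent) were higher and 6 (7.59 percent) lower, against 9.76 percent and 9.9 percent of all genes. The 4 members that DESeq2 called besides Stx3 were above the limma threshold in the fit of all 24 mice. Among other limma fits, Rims2 and Syt5 passed with mice blocked by their first label number (adjusted p = 0.0372 and 0.0381, at a consensus correlation of -0.0451 between mice of a block) and with a minimum mean of 50 (0.0495 and 0.0470), and Rims2 also under quantile normalization (0.0291) and rescaling (0.0340). Rims2 ran from 1359 over 1788 to 1988 with the bacterium and from 1862 over 2065 to 2240 with both (log2 fold change 0.25, SE 0.069, limma adjusted p = 0.0544, DESeq2 0.0274). Rims1, also a RIM scaffold of the active zone, ran from 3733 over 5042 to 5534 and from 5237 over 5795 to 6789 (log2 fold change 0.26, SE 0.083, limma adjusted p = 0.0808, DESeq2 0.0499). Both pairs of groups overlapped, and mouse 9_3 had the lowest value of both genes; without it the log2 fold changes were 0.18 for Rims2 and 0.19 for Rims1, and without 8_4 as well 0.13 and 0.15.

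Stxbp4 (Synip), a syntaxin-4 binding protein known from insulin-driven glucose transporter traffic, ran from 267 over 322 to 338 with the bacterium and from 315 over 358 to 418 with both (log2 fold change 0.23, SE 0.070, limma adjusted p = 0.0747, DESeq2 0.0412). Syt5, a calcium-binding synaptotagmin of vesicles and dense-core granules, went the other way, with 2420, 2595 and 2839 normalized counts with the bacterium and 2285, 2343 and 2474 with both (log2 fold change -0.14, SE 0.040, limma adjusted p = 0.0555, DESeq2 0.0151). The ranges of both genes overlapped. Without mice 8_4 and 9_3 Stxbp4 was at 0.14 and Syt5 at -0.12. Leaving out mouse 8_4 alone brought the number of called members to 4, and the share of all genes called in that fit is not given here. The slope with transcript length had the opposite sign here, with a Spearman's rho of 0.334 over the members and 0.257 over all genes, or 0.191 and 0.0905 without mouse 9_3. This comparison and that of *R. flavefaciens* with control share the *R. flavefaciens* mice.

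The sequences before the start sites of 3 of the 4 members that DESeq2 called as higher in this comparison are shown, since these genes stand together there; that of Rims2 is not given. They are the 250 bases before the RefSeq start (GRCm38.p6, gene strand, 5′ to 3′), with GC boxes (GGGCGG), cAMP response elements (TGACGTCA) and TATA boxes (TATAAA) of either strand in capitals.
Stx3, chr19:11819404-11819653, minus strand: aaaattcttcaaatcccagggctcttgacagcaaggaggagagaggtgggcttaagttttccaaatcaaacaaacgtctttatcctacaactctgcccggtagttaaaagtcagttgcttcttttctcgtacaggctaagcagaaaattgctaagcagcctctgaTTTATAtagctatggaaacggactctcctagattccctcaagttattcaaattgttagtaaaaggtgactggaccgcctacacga
Rims1, chr1:22806159-22806408, minus strand: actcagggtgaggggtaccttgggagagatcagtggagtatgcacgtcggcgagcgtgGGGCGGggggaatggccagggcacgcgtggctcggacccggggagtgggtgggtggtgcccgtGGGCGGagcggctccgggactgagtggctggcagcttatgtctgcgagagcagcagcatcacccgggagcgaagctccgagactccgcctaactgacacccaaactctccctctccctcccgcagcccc
Stxbp4, chr11:90638109-90638358, minus strand: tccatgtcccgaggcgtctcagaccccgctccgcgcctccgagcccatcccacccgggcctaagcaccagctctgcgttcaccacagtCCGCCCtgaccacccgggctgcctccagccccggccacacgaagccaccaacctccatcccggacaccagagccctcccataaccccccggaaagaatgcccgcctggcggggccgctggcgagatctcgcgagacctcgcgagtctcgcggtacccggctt
The window of Stx3, the gene that rose, has a GC content of 42 percent, a single TATA box on the opposite strand and no GC box, whereas those of Rims1 and Stxbp4 have 68 and 70 percent and 2 and 1 GC boxes. Of all 32851 windows of this length, 32.7 percent hold a GC box, 1.55 percent a cAMP response element and 12.4 percent a TATA box. Of the 82 windows of the 63 members found in the table, 63.4 percent, 2.44 percent and 7.32 percent do. The median GC content was 61.2 percent for the members and 52.4 percent for all windows. A match of letters is a description and was not tied to any factor.

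The interaction asks whether the effect of 1 treatment depends on the other. Limma called 0 of 79 members and 0.0 percent of all genes. DESeq2 called 0 members, and its share of all genes is not given here. At an unadjusted p under 0.05, 4 members (5.06 percent) were above 0 and 3 (3.80 percent) below, against 3.86 and 3.67 percent of all genes. Rims2 had the smallest p (log2 difference of differences 0.24, SE 0.098, limma adjusted p = 0.639), and without mice 8_4 and 9_3 its value was 0.13 (SE 0.075, limma unadjusted p = 0.106). Averaged over the duloxetine groups, *R. flavefaciens* gave 0 called members and 0.0267 percent of all genes with limma. The unadjusted counts were 1 higher and 13 lower (1.27 and 16.5 percent), against 7.68 and 10.4 percent of all genes. DESeq2 called Syn1 and Rab3gap1 as lower, with 2.95 percent of all genes. Syn1 was at -0.13 (SE 0.041, limma adjusted p = 0.12, DESeq2 0.0423) and Rab3gap1 at -0.11 (SE 0.034, limma adjusted p = 0.126, DESeq2 0.0484). Without mice 8_4 and 9_3 they were at -0.09 and -0.08.

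Averaged over the bacterium groups, duloxetine went with a higher level of Stx3. The log2 fold change was 0.21 (SE 0.047, limma adjusted p = 0.0311, edgeR adjusted p = 0.0287, DESeq2 adjusted p = 0.00684), that is 1.16 times the level without duloxetine. This average joins 0.11 in mice without the bacterium (limma adjusted p = 0.9996) and 0.31 in mice with it (limma adjusted p = 0.0171). With the length trend removed, the interaction of Stx3 was 0.20 (limma unadjusted p = 0.0320, adjusted p = 0.814). Limma called this 1 member of 79 and 1.03 percent of all genes, and DESeq2 the same member and 2.14 percent. At an unadjusted p under 0.05, 6 members (7.59 percent) were higher and 5 (6.33 percent) lower, against 7.44 and 7.49 percent of all genes. The Stx3 call was lost on leaving out control mouse 2_1 or 3_1, duloxetine mouse 5_3 or 6_3 or *R. flavefaciens* mouse 9_1, with adjusted p-values of at most 0.0643.

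Other genes of vesicle docking, priming, filling and recycling, 59 tested genes listed beside the members, were counted in the same way. Limma called 0 of them for duloxetine, *R. flavefaciens* or both treatments against control. The numbers lower at an unadjusted p under 0.05 were 1, 17 and 14, that is 1.69, 28.8 and 23.7 percent against 1.63, 10.8 and 8.73 percent of all genes. The numbers higher were 0, 6 and 2, that is 0.0, 10.2 and 3.39 percent against 2.2, 8.86 and 8.08 percent. For both treatments against *R. flavefaciens*, limma called 4 of the 59, or 6.78 percent, against 2.23 percent of all genes. The priming factors Unc13a (Munc13-1) and Unc13b (Munc13-2) rose, by 0.31 (SE 0.069, limma adjusted p = 0.0202) and 0.29 (SE 0.063, limma adjusted p = 0.0171) on the log2 scale. Against control they were at -0.22 and -0.16 with *R. flavefaciens* alone, or -0.06 and 0.05 with the length trend removed. With both treatments against control they were at 0.08 and 0.13, and none of these differences passed. For both treatments against *R. flavefaciens*, Svop, a transporter-like vesicle protein related to SV2, fell by 0.19 (limma adjusted p = 0.0404), and Rabac1, a Rab3-binding membrane protein, fell by 0.24 (limma adjusted p = 0.0322). Without mice 8_4 and 9_3 these 4 genes were at 0.22, 0.30, -0.21 and -0.16 in that order, and Unc13a and Rabac1 no longer passed (limma adjusted p = 0.0535 and 0.0646). With the length trend removed they were at 0.19, 0.14, -0.22 and -0.21, and neither Unc13a nor Unc13b passed (limma adjusted p = 0.0848 and 0.203). Each of these fits called 3 of the 59, of which 1 was newly called. Of all genes, 3.08 percent were called without the 2 mice, and the share with the length trend removed is not given here. The newly called gene was the calcium sensor Doc2a without the 2 mice (log2 fold change -0.34, limma adjusted p = 0.0344). With the length trend removed it was Sh3gl1, an endophilin (-0.22, limma adjusted p = 0.0405).

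With *R. flavefaciens* alone, the active zone scaffold Pclo (piccolo) was at -0.45 and Slc17a6, the vesicular glutamate transporter 2, at -0.51 on the log2 scale (limma adjusted p = 0.0727 for both), and the monoamine transporter Slc18a2 was at 0.34 and the clathrin light chain Cltb at 0.13 (limma adjusted p = 0.102 and 0.105). Without mice 8_4 and 9_3 Pclo was at -0.24, Slc17a6 at -0.40, Slc18a2 at 0.29 and Cltb at 0.13. With the length trend removed they were at -0.22, -0.49, 0.37 and 0.12 in that order. With both treatments against control, Doc2a was at -0.28, Amph (amphiphysin) at -0.17, Ppfia1 (liprin-alpha-1) at 0.15 and Unc13b at 0.13, and none passed. With duloxetine alone, Slc17a6 was at -0.37 and Syngr3 at -0.10, Slc18a2 at 0.22 and Slc17a8, the vesicular glutamate transporter 3, at 0.53, and none passed.

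Markers of the cell types that a punch of the mPFC could hold were measured in the same mice. All 8 markers of excitatory cortical neurons were in the table, led by Camk2a with a mean of 52790 normalized counts, and their sum was 103300 ± 3736 in controls, 104400 ± 4409 with duloxetine, 104800 ± 6492 with *R. flavefaciens* and 107000 ± 5970 with both (SD, n = 6 each). The sum of the 8 markers of inhibitory neurons, led by Gad1, was 10760 ± 476, 10710 ± 380, 11590 ± 361 and 11180 ± 661 in the same order. Limma called 0 of these 16 neuronal genes in each comparison with control. With *R. flavefaciens* against control, the interneuron markers Sst and Pvalb were at 0.34 and 0.44 on the log2 scale (limma adjusted p = 0.0727 and 0.0875), and at an unadjusted p under 0.05 these and Slc32a1, the vesicular GABA transporter (0.16), were higher and Adarb2 (-0.17) was lower, that is 3 and 1 of the 8 inhibitory markers, against 8.86 and 10.8 percent of all genes. The part of these cells in the results was not tested. The 8 oligodendrocyte markers, led by Mbp, ran from 14390 to 39010 in controls and from 11880 to 53080 with both treatments. Microglial sums were 4219 ± 237, 4677 ± 436, 4743 ± 362 and 4916 ± 646, and those of the 5 blood genes 349 ± 65.7, 462 ± 265, 598 ± 205 and 633 ± 351 (SD, n = 6 each), led by Csf1r and Hbb-bs.

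Astrocyte sums were 69080 ± 4529, 71200 ± 3981, 67320 ± 6658 and 76810 ± 9242, those of endothelial cells and pericytes 5089 ± 285, 5438 ± 585, 5344 ± 354 and 5728 ± 853, and those of the striatal markers 3027 ± 299, 2830 ± 93.2, 3611 ± 2181 and 3153 ± 871 (SD, n = 6 each). Of 6 choroid plexus markers 3 were in the table, with sums of 51.9 ± 10.1, 68.3 ± 42.1, 191 ± 296 and 77.9 ± 41.5. The part of these cell types in the differences of the members was not tested. In such bulk samples, fewer cells of a type and less RNA per cell cannot be told apart.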

How the data were processed

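RNA from the mPFC of 24 mice, 6 per group, was sequenced. According to the methods the authors prepared poly(A) libraries and mapped the reads to GRCm38.p5, whereas the submitters' processing notes name mm9 beside TopHat2 2.1.0, Bowtie2 2.2.6 and DESeq2 1.18.1. The counting tool, its use of strand and the filter on genes are not given in the sources used here. The deposited signal values are counts per gene that the authors divided by 1 size factor per mouse with DESeq2. Values below 1000 were whole multiples of 1 step per mouse within 0.0051 (100 percent in the lowest mouse), and the reads recovered so stand for depth, with a median of 14455107 per mouse. Positions of 76 of the 80 members and IDs of all 80 match GENCODE vM21 (GRCm38), from which transcript lengths came. No mouse repeated another of its group: the chi-square of recovered reads between mice of the same group, divided by its degrees of freedom, lay between 2.07 and 25.9 in 60 pairs. Mice of different groups were not compared in this way. Mice were group housed according to the methods, but which of them shared a cage or litter is not given in the sources used here, and p-values measure the spread between these mice. A processed pseudogene that met the naming rule was left out. Where genes overlap or have near-identical copies, reads may be split between them, and without strand an antisense partner cannot be told apart.

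All 14974 genes whose mean reached 10 normalized counts were fitted together by limma 3.58.1 (R 4.3.3) with trend, on log2(value + 1), over all 4 groups, with 5 comparisons of groups, the interaction and 2 averaged effects. Fold changes are on that log2 scale. All p-values are two-sided and, within a comparison, adjusted over all genes by Benjamini-Hochberg, and a member is said to have risen or fallen at an adjusted p under 0.05. DESeq2 1.42.0 and edgeR 4.0.16 were run on recovered reads, and all fits were tested on simulated data. Tables and figures were made with Python 3.11.15, numpy 2.4.6, pandas 2.3.3, scipy 1.17.1 and matplotlib 3.10.9. The members and lists were chosen with earlier results of these data known, and lists are described by counts only.

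The genes named in the text are the core release machinery (14 genes, of which 2 are counted with their classes but not reported singly here), the 3 higher and 3 lower members with the smallest limma p for each treatment against control and for both against duloxetine, the member with the smallest p of each other comparison, every member called by limma, up to 5 called by DESeq2 in each direction, and the member with the highest and lowest level of each class; of the other vesicle genes, those called and the 2 higher and 2 lower of each comparison with control. Members given beside them as part of a count of 5 or fewer were named after their values were seen. Alternatives were leaving out each mouse, the other tools, a loess correction for transcript length (span 0.3), a fit restricted to the groups of a comparison, scaling by quantiles or by the 75th percentile, mice blocked at random by their first label number, the pseudocount 0.1, the filter at 50 or absent, and an adjusted p under 0.1. Leaving out mice 8_4 and 9_3 together was added after the data were seen. No protein sequence was used here.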

Additional observations from a re-analysis of the deposited data

Results flagged for a closer look

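Of 56 combinations of a named member and a group of 6 mice that were looked through, 2 held a mouse far from the other 5, where chance gives about 1 in 20. Syn2 was at 8947 normalized counts in control mouse 2_3, against 10440 to 11280 in the other 5 controls. Rims1 was at 5914 normalized counts in duloxetine mouse 6_2, against 4989 to 5277 in the other 5 mice of that group.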

How the results depend on the processing

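Of 55 pairs of a named member and a comparison, 1918 values were recomputed under the alternatives, of which 1863 kept direction and side of the threshold, 29 newly passed it, 6 no longer passed and 20 turned direction. The share of all genes is given for only some of these settings. Where it is not, the counts below do not set a move of the members apart from one of all genes. The number of called members moved as follows. For both treatments against *R. flavefaciens*, with 1 called member, it was 3 with a minimum mean of 50, 0 with only the groups compared, 2 with quantile normalization, 2 with rescaling to the 75th percentile, 3 with a random block for the first label number, 5 with DESeq2 and 6 at an adjusted p under 0.1. For *R. flavefaciens* against control, with 0, it was 1 with DESeq2 and 3 at an adjusted p under 0.1. For both treatments against control, with 0, it was 1 with only the groups compared and 2 with DESeq2, and for the bacterium averaged over duloxetine, with 0, it was 2 with DESeq2. Members with an unadjusted p under 0.05 were 1 in place of 2 for duloxetine against control with a minimum mean of 50, quantile normalization or rescaling, 7 in place of 15 for *R. flavefaciens* against control with the length trend removed, and 7 in place of 13 for both treatments against control with quantile normalization. In the last comparison the median log2 fold change of the members moved from -0.03 to -0.0090 with quantile normalization and to -0.0016 with rescaling, where the median of all genes moved from 0.0007 to -0.0060 and 0.0323, so that with rescaling the shift was common to all genes. With the length trend removed the 2 medians were -0.056 and -0.024, and 3 members were higher and 15 lower at an unadjusted p under 0.05. With mice 8_4 and 9_3 left out together, called members were 2 in place of 0 for both treatments against control and 2 in place of 1 for both treatments against *R. flavefaciens*, and those with an unadjusted p under 0.05 were 7 in place of 15 for *R. flavefaciens* against control and 12 in place of 4 for both treatments against duloxetine. The cause of these changes was not tested, apart from the fewer mice or genes that some settings hold by construction.

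Leaving out each mouse in turn gave 0 to 3 called members for *R. flavefaciens* against control (3 without mouse 9_2), 1 to 4 for both treatments against *R. flavefaciens* (4 without mouse 8_4) and 0 to 1 for duloxetine averaged over the bacterium. Apart from the shares given in the results, those of all genes are not given for the fits without single mice. Members with an unadjusted p under 0.05 ranged from 1 to 4 for duloxetine against control (4 without control mouse 2_3 or duloxetine mouse 5_1), from 9 to 21 for *R. flavefaciens* against control (9 without mouse 9_3, 21 without mouse 8_3), from 7 to 18 for both treatments against control (7 without mouse 11_3 or 12_2, 18 without mouse 12_4) and from 0 to 10 for both treatments against duloxetine (0 without duloxetine mouse 5_1, 10 without mouse 12_3).

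Differences near 0 turned direction for core genes that no test called. For *R. flavefaciens* against control with the length trend removed, the log2 fold changes of Rab3a, Stx1a and Vamp2 were -0.053, -0.0026 and -0.043, and Snap25 was at -0.020 with quantile normalization. For both treatments against control with quantile normalization, Snap25 was at -0.082, Stx1a at 0.023, Sv2a at 0.0066 and Vamp2 at 0.024, and with rescaling, which raised all genes as given above, Vamp2 was at 0.013. Without single mice, Snap25 ranged from -0.0062 to 0.064 and Vamp2 from -0.018 to 0.033 for *R. flavefaciens* against control, and Snap25 from -0.013 to 0.079 and Stx1a from -0.056 to 0.00043 for both treatments against control. No paired analysis was possible because no 2 groups share a mouse number. For low members such as Syt15, Syt10, Vamp5, Rab39 and Rab32, few reads per mouse limit what the test can show.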
